A study of Mus musculus with 6 samples.

Results

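The HOX genes of the 4 mouse clusters were followed in haematopoietic stem cells (HSCs) from fetal liver that carried or lacked Uqcrfs1. Members were all genes of the count table whose symbol is Hoxa, Hoxb, Hoxc or Hoxd with a number, without antisense and opposite-strand names. They numbered 39 of 23951 genes, with 11 in the Hoxa cluster, 10 in Hoxb, 9 in Hoxc and 9 in Hoxd. Uqcrfs1 encodes the Rieske iron-sulfur protein (RISP), which passes electrons within complex III of the mitochondrial respiratory chain. Total RNA was sequenced from 3 RISP wild type (WT) and 3 RISP knockout (KO) libraries, all of C57BL/6 strain and all labelled fetal liver HSC. The single comparison, KO against WT, addresses which transcripts change when fetal HSCs lack RISP. The labels do not say how or in which cells the gene was deleted, how old the embryos were, or whether each library came from its own embryo. The p-values therefore rest on library-to-library spread alone, part of which may be technical.

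HOX genes encode homeodomain transcription factors that lie side by side in 4 clusters, numbered by position, so that genes with the same number in different clusters (paralogues) descend from one ancestral gene. In blood, the genes of the Hoxa and Hoxb clusters are active in stem and progenitor cells and are shut off as cells mature. HOX proteins bind DNA together with PBX and MEIS proteins, and MLL (Kmt2a) with its partners keeps the clusters active while Polycomb complexes keep them silent. Hoxa9 is known for its part in stem cell renewal and in leukaemias with MLL fusions, and Hoxb4 for expanding stem cells when it is overexpressed.

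Library totals ran from 10191354 to 14590844 counts. Counts of Uqcrfs1 were 771, 1320 and 791 in the WT libraries against 60, 51 and 39 in the KO libraries, in the direction that each label gives. All 12 markers of stem cells that were looked up, among them Kit, Cd34, Mecom and Hlf, were kept by the filter on low counts. At an adjusted p under 0.05, 0 of them was higher in KO and 4 were lower, against 6.41% and 4.99% of all genes. Among the 4 were Kit, Cd34 and Hlf (edgeR, adjusted p = 0.0212, 0.00816 and 0.0151). For Cd34 and Hlf the call was lost in some fits that left out 1 library. Marker genes of other cells were also present. Their summed level in CPM (counts scaled to a common library size) was 77.2 to 909 in WT and 34.6 to 78.5 in KO for 10 macrophage genes, with the highest value in WT replicate 3. It was 255 to 519 and 81.1 to 130.0 for 9 erythroid genes, of which Hba-a1, Hba-a2 and Hbb-b1 were listed at 0 in every library. For 14 stromal genes it was 67.0 to 98.5 and 53.4 to 69.3, with Col3a1, Lum, Des and Prrx1 at 0. For 10 endothelial genes it was 379 to 1260 and 383 to 407. This sum hides genes that moved differently, as their median log2 fold change was -1.74. At an adjusted p under 0.05 (edgeR), 1 of the 10 was higher and 2 were lower, against 6.41% and 4.99% of all genes. The summed level was 88.8 to 180.0 in WT and 59.1 to 131 in KO for 9 hepatoblast genes. It was 206 to 227 and 102 to 125 for 6 megakaryocyte genes, and 26.2 to 45.3 and 22.4 to 26.6 for 9 lymphoid genes. In such bulk libraries, fewer cells of a type and less RNA per cell cannot be told apart.

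To show the regions from which transcripts of differing abundance start, the 250 bases upstream of 4 HOX starts are printed 5′ to 3′ on the gene's strand, with each CpG dinucleotide in capitals. They are from RefSeq on GRCm38.p6, a later build than the mm9 that the submitters' processing notes name. Hoxa9 was the most abundant HOX gene here, Hoxb8 had the largest fold change among the 14 genes tested, Hoxb4 lies in the same cluster, and Hoxd13 was at 0. The positions are chr6:52227371-52227620 (minus strand) for Hoxa9, chr11:96318017-96318266 (plus strand) for Hoxb4, chr11:96281655-96281904 (plus strand) for Hoxb8 and chr2:74667975-74668224 (plus strand) for Hoxd13.
Hoxa9: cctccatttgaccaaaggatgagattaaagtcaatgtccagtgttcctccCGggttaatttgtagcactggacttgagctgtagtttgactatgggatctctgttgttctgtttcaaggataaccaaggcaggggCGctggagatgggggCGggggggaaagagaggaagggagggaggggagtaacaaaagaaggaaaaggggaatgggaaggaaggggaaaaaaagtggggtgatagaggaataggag
Hoxb4: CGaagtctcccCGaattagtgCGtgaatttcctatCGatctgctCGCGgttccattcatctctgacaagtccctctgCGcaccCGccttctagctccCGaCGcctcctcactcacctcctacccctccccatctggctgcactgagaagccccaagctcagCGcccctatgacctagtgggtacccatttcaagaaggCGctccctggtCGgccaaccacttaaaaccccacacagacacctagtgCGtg
Hoxb8: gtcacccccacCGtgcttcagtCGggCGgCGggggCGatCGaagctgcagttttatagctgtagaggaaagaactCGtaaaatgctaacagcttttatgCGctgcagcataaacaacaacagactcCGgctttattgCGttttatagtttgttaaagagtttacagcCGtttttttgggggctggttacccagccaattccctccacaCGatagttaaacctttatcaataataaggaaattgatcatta
Hoxd13: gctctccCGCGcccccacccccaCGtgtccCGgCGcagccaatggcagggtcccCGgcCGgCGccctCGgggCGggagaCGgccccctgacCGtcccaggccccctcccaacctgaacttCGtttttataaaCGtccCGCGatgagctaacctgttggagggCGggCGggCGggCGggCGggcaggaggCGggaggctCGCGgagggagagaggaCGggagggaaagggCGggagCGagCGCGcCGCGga
The Hoxa9 window held 3 CpG and 49.6% G or C, against 14 CpG for Hoxb4, 12 for Hoxb8 and 31 CpG with 74.4% G or C for Hoxd13. The RefSeq promoter table held 24 windows of 22 HOX genes. The median number of CpG was 13 for the 10 windows of tested HOX genes and also 13 for the 12 windows of HOX genes at 0 in every library, and the ranges overlapped, from 3 to 28 and from 2 to 35. Over all 32851 windows the median was 6, and over those of all genes tested it was 15. The motif TGATNNAT, bound by HOX with PBX, was searched on both strands and occurred in 4 HOX windows (Hoxa2, Hoxb1, Hoxb8 and Hoxd11) and in 7.68% of all windows. The TATA box TATAAA, also on both strands, occurred in 4 (Hoxa10, Hoxb8, Hoxd13 and Hoxd4) and in 12.4% of all windows.

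Only Hoxa and Hoxb genes were expressed at a level that could be tested. Of the 39 genes, 24 had at least 1 count in some library and 14 passed the filter on low counts, 8 in Hoxa and 6 in Hoxb. The other 10 with counts had between 1 and 69 counts summed over all 6 libraries. The remaining 15 had 0 counts everywhere, among them 8 of the 9 Hoxd genes, 4 of the 9 Hoxc genes, Hoxa11, Hoxa13 and Hoxb13. A count of 0 allows a level of up to 0.200 to 0.301 CPM, depending on the library (3 counts, for counting error only).

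**Figure D1:**
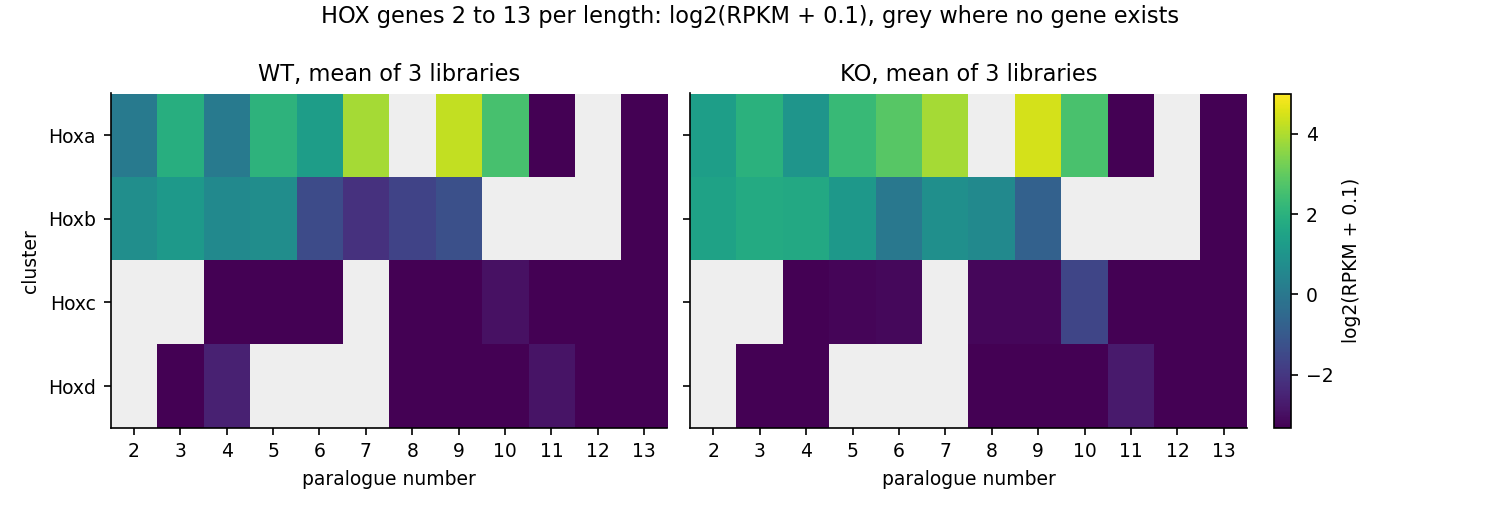
Mean level per length, as log2(RPKM + 0.1), of the HOX genes numbered 2 to 13 by cluster (rows) and paralogue number (columns), in WT on the left and KO on the right (3 libraries each); grey marks numbers that a cluster lacks. Hoxa9 and Hoxa7 are brightest in both panels, and the Hoxc and Hoxd rows are dark, with Hoxc10 in KO the lightest at 0.233 RPKM.

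Levels of different genes were compared per length, in the authors' RPKM (reads scaled to gene length and library size). In WT, Hoxa9 was highest at 18.5 ± 2.59 RPKM (SD, n = 3), followed by Hoxa7 at 14.6 ± 3.18, whose libraries overlapped with those of Hoxa9. Hoxa7 stood clear of the next gene, Hoxa10 at 5.82 ± 2.45. From Hoxa10 down to Hoxa2 at 0.954 ± 0.356 every gene overlapped with its neighbour in the order, which ran through Hoxa5, Hoxa3, Hoxa6, Hoxb3, Hoxb2, Hoxb5, Hoxb4 and Hoxa4. The next gene after Hoxa2 was Hoxb9 at 0.306 ± 0.256 RPKM, below it in every library. In KO, Hoxa9 at 22 ± 5.12 RPKM was above Hoxa7 at 14.8 ± 0.780 in every library, and Hoxa6 took the third place at 7.12 ± 2.66, overlapping with Hoxa10. The HOX genes beyond number 10 had 0 counts, and levels per length peaked at numbers 7 and 9 of the Hoxa cluster in both groups.

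No HOX gene passed the threshold in KO against WT. At an adjusted p under 0.05, 0 of the 14 tested genes was higher and 0 lower (edgeR quasi-likelihood test, Benjamini-Hochberg over 12204 genes), where 6.41% of all genes were called higher and 4.99% lower, 11.4% in all. At an unadjusted p under 0.05 there was 1, Hoxb8, against 25% of all genes. With DESeq2, Hoxb8 was called (adjusted p = 0.0468) and Hoxb2 had an unadjusted p under 0.05. DESeq2 also called more of the same 12204 genes, 942 higher and 846 lower, against 782 and 609 with edgeR. With limma-voom 0 HOX genes were called and 0 had an unadjusted p under 0.05. The lowest adjusted p in edgeR was 0.155. For most members the data bound the change only loosely. The 95% interval reached a log2 fold change of 1 or more for 10 of the 14 genes, and its distance to the estimate was 0.41 for the best measured gene and 3.10 for the least.

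**Figure D2:**
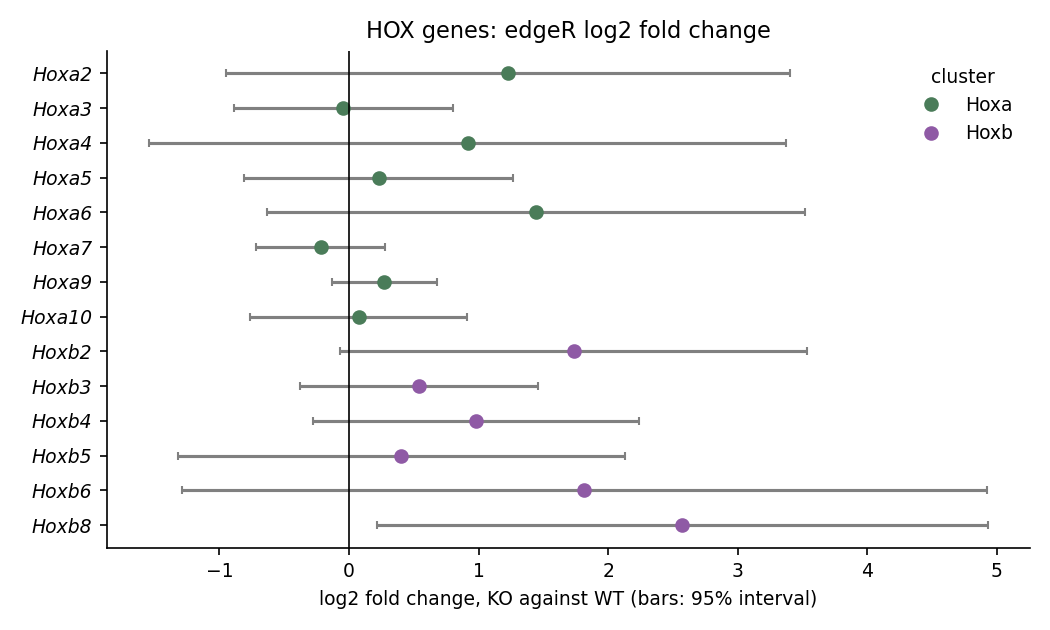
Log2 fold change of KO against WT (x axis, edgeR) with its 95% interval, for the 14 HOX genes tested (y axis), Hoxa in green and Hoxb in purple. All 6 Hoxb points lie above 0, and the interval of Hoxb8 alone leaves out 0 without adjustment for the number of genes tested.

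The most abundant Hoxa genes overlapped between the groups. Hoxa9 was measured at 53.0, 43.4 and 45.2 CPM in WT replicates 1 to 3 and 50.3, 54.8 and 66.0 CPM in KO. KO replicate 3 was the highest library, and the groups overlapped. The log2 fold change of Hoxa9 was 0.27 with a standard error (SE) of 0.19 (edgeR, adjusted p = 0.422), with a 95% interval from -0.13 to 0.68, which leaves out a doubling. Hoxa7, a neighbour of Hoxa9 whose gene is likewise upregulated in MLL-driven leukaemia, had 31.6, 48.7 and 34.5 CPM in the WT libraries and 37.2, 32.2 and 29.3 CPM in KO. Only WT replicate 2 lay above every KO library. Hoxa7 had a log2 fold change of -0.22 (SE 0.24, interval -0.71 to 0.28, edgeR adjusted p = 0.635). Hoxa10, known for its part in myeloid progenitors and in the uterus, ranged from 10.9 to 19.8 CPM in WT and from 8.79 to 20.2 CPM in KO, so that the KO range contained the WT range. Hoxa7, Hoxa9 and Hoxa10 together held 68.8% ± 2.37 of all HOX counts in WT and 59.4% ± 4.19 in KO (SD, n = 3).

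Of the other Hoxa genes, Hoxa6 alone had all KO libraries above all WT libraries. It was measured at 2.31, 1.30 and 0.848 CPM in the WT libraries and 3.39, 3.46 and 5.28 CPM in KO. The log2 fold change of Hoxa6 was 1.44 with an SE of 1.00 (edgeR, adjusted p = 0.405). Hoxa5, whose product is known from lung development and myeloid differentiation, had 7.52 ± 1.39 CPM in WT and 8.82 ± 2.63 in KO (SD, n = 3 each), and Hoxa3, a gene of pharyngeal arch and thymus development, 12.4 ± 4.14 and 12 ± 1.82 CPM. Hoxa4 had 0 counts in WT replicate 1 and 20 and 42 in the others, against 51, 49 and 35 in KO. Hoxa2, a hindbrain patterning gene, had 109 counts in KO replicate 1 and 11 to 29 in every other library. The log2 fold change of 1.23 rested on that library and was 0.10 without it.

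**Figure D3:**
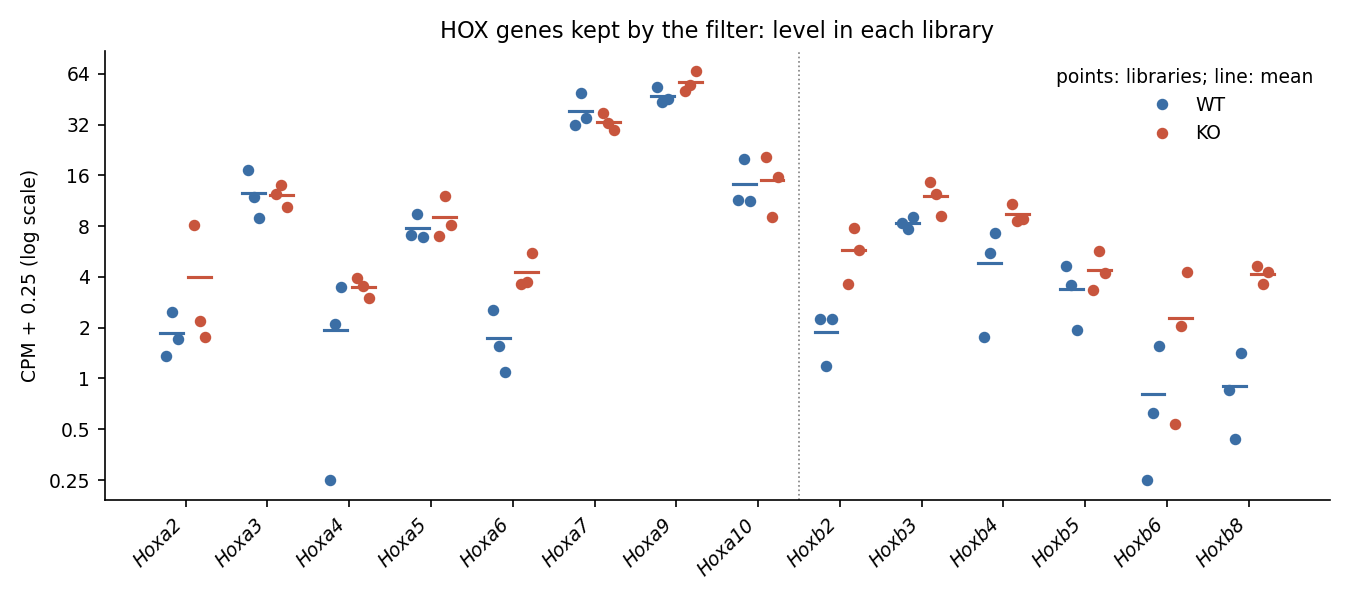
CPM + 0.25 on a log scale (y axis) of the 14 tested HOX genes (x axis), with 1 point per library, WT in blue and KO in red, and a line at the mean. The Hoxa7 and Hoxa9 points sit highest and intermingle, while for Hoxb2, Hoxb3, Hoxb4, Hoxb8 and Hoxa6 the KO points lie above all WT points.

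In the Hoxb cluster the measured genes leaned towards higher values in KO, without any passing the test. All 6 tested genes had a log2 fold change above 0, against 48% of all genes tested, and their median was 1.36, against 0.25 for the 8 tested Hoxa genes and -0.02 for all genes tested. For 4 of the 6, and for 5 of the 14 HOX genes in all, every KO library lay above every WT library, which held for 15.7% of all genes. For 0 of the 14 every KO library lay below, against 14.5% of all genes. The filter asked for about 0.794 CPM in 3 libraries. Hoxb8 reached this in 1 WT and 3 KO libraries, and Hoxb6 in 1 WT and 2 KO libraries, so both were tested only because of KO libraries. Both are in the count of 6 and in the median of 1.36, and Hoxb8 is among the 4 and the 5. For these genes the direction is thus partly set by the filter. Hoxb genes share a chromosomal region and neighbouring genes may share reads, so they are not independent measurements.

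Hoxb8, known for blocking myeloid differentiation when it is forced on, had 61, 51 and 51 counts in the KO libraries and 6, 2 and 15 in the WT libraries. Its level was 0.601, 0.186 and 1.16 CPM in WT and 4.4, 3.4 and 4.02 CPM in KO. The 3 KO libraries were close together, and the lowest of them was above the highest WT library. Its log2 fold change of 2.57 had an SE of 1.13 and an interval from 0.22 to 4.93 (edgeR, unadjusted p = 0.0338, adjusted p = 0.155).

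Hoxb2, a hindbrain and blood gene at the 3′ end of the cluster, had 2.0, 0.931 and 2.0 CPM in WT and 3.39, 7.59 and 5.52 CPM in KO. Its log2 fold change was 1.73 with an SE of 0.86 (edgeR, adjusted p = 0.219). In RPKM the same gene did not separate the groups. It had 2.18, 1.22 and 1.53 RPKM in WT and 1.34, 3.35 and 3.4 in KO, so KO replicate 1 was below WT replicates 1 and 3. In RPKM, 4 of the 14 tested HOX genes had every KO library above every WT library, against 16.1% of all genes. The gene length that its counts and RPKM imply together ran from 0.747 to 2.46 kilobases over the libraries, so the tables disagree for this gene by more than a scaling factor, and the cause was not tested.

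Hoxb4, the stem cell expansion gene, had 1.5, 5.31 and 7.02 CPM in WT and 10.6, 8.32 and 8.52 CPM in KO. WT replicate 1 was far below the other libraries, and the lowest KO library was above the highest WT library. The log2 fold change was 0.98 with an SE of 0.60 (edgeR, adjusted p = 0.336). Hoxb3, whose RefSeq span overlaps Hoxb4, had 8.12, 7.45 and 8.79 CPM in WT and 14.4, 12.2 and 8.91 CPM in KO, with KO replicate 3 close to the highest WT library. The estimate for Hoxb3 was a log2 fold change of 0.54 (SE 0.44, edgeR adjusted p = 0.490). Hoxb5 overlapped between groups, at 3.15 ± 1.37 CPM in WT and 4.17 ± 1.20 in KO (SD, n = 3). Counts of Hoxb6 were 0, 4 and 17 in the WT libraries and 4, 27 and 51 in the KO libraries, with KO replicate 1 within the WT range.

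The Hoxb genes outside the test had few reads. Counts of Hoxb7 were 0, 0 and 6 in the WT libraries and 7, 40 and 0 in the KO libraries. In the RPKM table it was at 0, 0 and 0.385 in WT and 1.03, 2.29 and 1.71 in KO, so KO replicate 3 held an RPKM of 1.71 with 0 counts. Hoxb9 counts were 17, 2 and 4 in the WT libraries and 11, 27 and 8 in the KO libraries, Hoxb1 had 6 counts over all libraries, and Hoxb13 had 0.

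Summed over the cluster, Hoxb counts were 183, 191 and 296 in WT and 520, 654 and 451 in KO. In CPM this was 18.3, 17.8 and 22.8 in WT and 37.5, 43.5 and 35.6 in KO, or 19.6 ± 2.76 against 38.9 ± 4.16 (SD, n = 3), 1.98-fold higher in KO. Every KO library was above every WT library, and the sum of the authors' RPKM gave 2.02-fold. Without Hoxb3, the most abundant member, the sum was 11.5 ± 2.17 CPM in WT and 27.0 ± 4.15 in KO, 2.34-fold. A sum over chosen genes gets no p-value here. The Hoxa sum overlapped between groups, at 123, 139 and 112 CPM in WT and 142, 130.0 and 139 in KO, 1.10-fold. Hoxb held 13.7% ± 2.83 of all HOX counts in WT and 22.1% ± 2.52 in KO, and its share in each KO library, 20.9%, 25% and 20.3%, was above that in each WT library, 13%, 11.4% and 16.9%. The 95% Wilson intervals of these shares were 11.3% to 14.8%, 9.93% to 13% and 15.2% to 18.7% in WT, and 19.4% to 22.6%, 23.3% to 26.6% and 18.7% to 22% in KO, for counting error only. All 39 genes together made up 144 ± 11 CPM in WT and 176 ± 2.52 in KO.

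**Figure D4:**
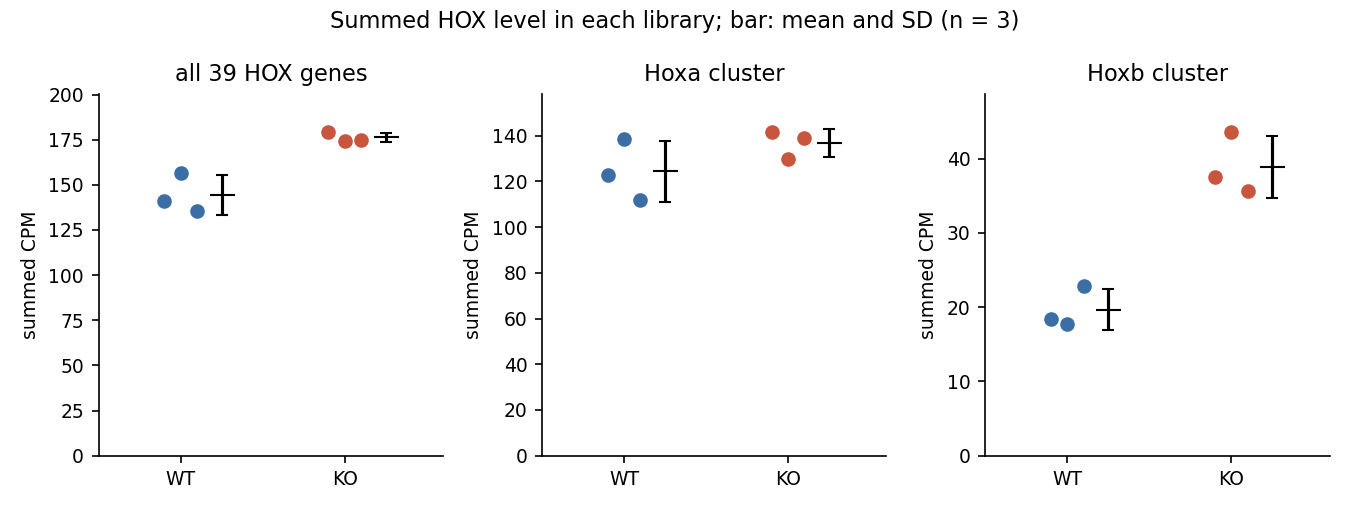
Summed CPM (y axis, from 0) of all 39 HOX genes, of the Hoxa cluster and of the Hoxb cluster in WT and KO; points are libraries and the black bars give the mean and SD (n = 3). The Hoxb sums are 17.8 to 22.8 in WT and 35.6 to 43.5 in KO, whereas the Hoxa sums overlap.

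These sums were set beside what else differed between libraries. WT replicate 3, with the most macrophage and endothelial marker counts, had the highest Hoxb sum of the WT group. Without it the log2 ratio of KO over WT was 1.11, and over all libraries left out 1 at a time it ran from 0.90 to 1.11. The tested Hoxb genes have transcripts of 1964 to 3190 bases and the tested HOX genes a median of 2565.5 (longest GENCODE vM21 transcript), and 0 of the 14 was in the longest of 4 length classes, in which 11.5% were called higher. In the class that spans 2250 to 3442 bases, 4.60% were called higher and 4.98% lower. In the shortest class, of 70 to 2249 bases, 2.47% were called higher and 7.03% lower. The median of the tested Hoxa genes, 1954 bases, and the shortest tested Hoxb gene fall in that class. The part of stem cell and other cell markers in these levels was not tested.

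By paralogue number, the sums differed in where the groups separated. Number 2 (Hoxa2 and Hoxb2) was measured at 3.25 ± 0.195 CPM in the WT libraries and 9.26 ± 2.13 in KO, number 4 at 6.49 ± 4.68 and 12.4 ± 1.65, number 6 at 2.05 ± 0.329 and 6.10 ± 2.89, and number 8 at 0.648 ± 0.487 and 3.96 ± 0.471 (SD, n = 3 each). For these 4 numbers every KO library was above every WT library, in RPKM as in CPM. The sums hold genes already given and are not independent of them. Number 8 was nearly all Hoxb8, and Hoxa2 gave 109 of the 156 counts of number 2 in KO replicate 1. For number 4 the groups were close, with WT replicate 3 at 10.8 CPM and KO replicate 3 at 11.3 CPM. Numbers 3, 5, 7, 9 and 10 overlapped, with number 9 at 47.9 ± 5.96 CPM in WT and 58.1 ± 7.90 in KO and number 7 at 38.4 ± 9.06 and 34.0 ± 4.26. Numbers 11, 12 and 13 had 0 counts in every library.

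Hoxc and Hoxd were close to silent. Counts over the whole Hoxc cluster were 0, 2 and 0 in the WT libraries and 1, 14 and 8 in the KO libraries. Nearly all came from Hoxc10, a limb and trunk patterning gene, with 2 counts in WT replicate 2 and 11 and 8 in KO replicates 2 and 3. Hoxc5, Hoxc6, Hoxc8 and Hoxc9 had 1 count each. The Hoxd cluster had 7 counts in all, from Hoxd4 in WT replicate 3. At this depth a difference between groups in these clusters was not detectable.

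Genes that work with or on HOX proteins were described by lists. The TALE cofactors (MEIS, PBX and PKNOX proteins, which bind DNA as partners of HOX) had 0 of 7 tested genes called higher, against 6.41% of all genes. Meis1, the partner of Hoxa9 in stem cells and leukaemia, was at 252, 215 and 212 CPM in WT and 176, 181 and 210.1 CPM in KO, without overlap, with a log2 fold change of -0.26 (SE 0.12, edgeR adjusted p = 0.184). Its relative Meis2 had 39, 10 and 81 counts in the WT libraries and 11, 5 and 3 in the KO libraries (edgeR, adjusted p = 0.127, and 0.0341 with DESeq2, which called it lower).

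Of the MLL and trithorax list, which holds MLL, its partners and other activating chromatin proteins, 6 of 20 genes were higher and 0 lower, where 6.41% of all genes were higher and 4.99% lower, with a median log2 fold change of 0.33 against -0.02 for all genes tested. Kmt2a itself was at 277, 259 and 292 CPM in WT and 428, 397 and 458 CPM in KO, and rose by 0.63 (SE 0.11, edgeR adjusted p = 0.000494). Dot1l, the H3K79 methyltransferase recruited by MLL fusions, rose by 0.90 (SE 0.19, adjusted p = 0.00343), and Brpf1, a scaffold of histone acetyltransferases, by 0.87 (SE 0.19, adjusted p = 0.00491). Kat6a, an acetyltransferase known to act at HOX genes, rose by 0.42, as did Psip1, the chromatin tether of MLL, and Kdm6b, an H3K27 demethylase, rose by 0.50 (edgeR, adjusted p = 0.0106, 0.0119 and 0.0184). Leaving out a single library could end each of these last 3 calls (KO replicate 2 for Kat6a, with adjusted p = 0.0741, KO replicate 3 or WT replicate 1 or 3 for Psip1, up to 0.0632, and KO replicate 2 or 3 or WT replicate 1 or 2 for Kdm6b, up to 0.0921). Long transcripts were common in this list, and 11 of its 20 genes were in the longest length class, in which 11.5% of all genes were called higher. With limma on log2(RPKM + 1) only 1 of the 6 calls was left, and without KO replicate 2 or KO replicate 3 the list had 4 higher genes.

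Of 24 Polycomb genes, 3 were higher and 1 lower, against the same 6.41% and 4.99% of all genes. With limma on RPKM, at either pseudocount, 0 of them were higher and 0 lower, so that all 4 calls below were lost. Phc1, a subunit of Polycomb repressive complex 1, rose by 0.61 (SE 0.15, edgeR adjusted p = 0.00916), and Asxl2, of the H2A deubiquitinase complex, by 0.61 (SE 0.13, adjusted p = 0.00472). Ezh2, the H3K27 methyltransferase, was at 144, 145 and 120 CPM in WT and 192, 167 and 192 CPM in KO, and rose by 0.43 (SE 0.13, adjusted p = 0.0325). It lost that call without WT replicate 3 or any 1 KO library (highest adjusted p = 0.124). Rbbp4, a histone-binding protein shared with other complexes, fell by 0.42 (SE 0.11, adjusted p = 0.0194), a call lost when WT replicate 2 or either of KO replicates 2 and 3 was left out (highest adjusted p = 0.101). Bmi1, which HSCs need for self-renewal, was at 80.1 ± 12.6 CPM in WT and 95.2 ± 7.46 in KO (edgeR, adjusted p = 0.367).

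Among CDX, retinoid and topology regulators 0 of 10 tested genes passed in either direction in edgeR, where 6.41% of all genes were higher and 4.99% lower. An unadjusted p under 0.05 was found for 2 of them, against 25% of all genes. Cyp26b1, an enzyme that breaks down retinoic acid, had 10.6 ± 1.38 CPM in the WT group and 2.70 ± 2.35 in the KO group (SD, n = 3 each, edgeR adjusted p = 0.0792). It was called lower with DESeq2 (adjusted p = 0.0431), limma-voom (0.0448) and edgeR without the filter (0.0257). The Cdx genes, which switch on HOX clusters in the embryo, were listed at 0 counts in every library, as was Cyp26a1. Ctcf, which insulates the clusters, had 172 ± 10.8 CPM in the WT group and 190.5 ± 21.2 in the KO group (edgeR, adjusted p = 0.496).

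Blood genes that are linked to Hoxa9 and Meis1 went both ways, with 2 of 20 higher and 5 lower, against 6.41% and 4.99% of all genes, and a median of -0.04. With limma on RPKM, at either pseudocount, 1 was higher (Pim1) and 1 lower (Id2). Id2, an inhibitor of helix-loop-helix factors, fell from 33.7 ± 12.4 to 7.64 ± 3.63 CPM (SD, n = 3 each), by 2.14 on the log2 scale (edgeR, adjusted p = 0.00093). Cd34 fell by 0.49, Hlf by 0.55, Runx1 by 0.57 and Flt3, a cytokine receptor of early progenitors, by 0.61. Cd34 lost its call without KO replicate 2 (adjusted p = 0.0714), and Hlf, Runx1 and Flt3 did so when WT replicate 1 or either of KO replicates 2 and 3 was left out (highest adjusted p = 0.0956, 0.132 and 0.191). Pim1, a kinase gene downstream of cytokine receptors, rose by 0.78 (SE 0.14, edgeR adjusted p = 0.000939). Gfi1, a transcriptional repressor, rose by 0.62 (SE 0.17, adjusted p = 0.0199), a call lost when WT replicate 2 or either of KO replicates 2 and 3 was left out (highest adjusted p = 0.129).

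**Figure D5:**
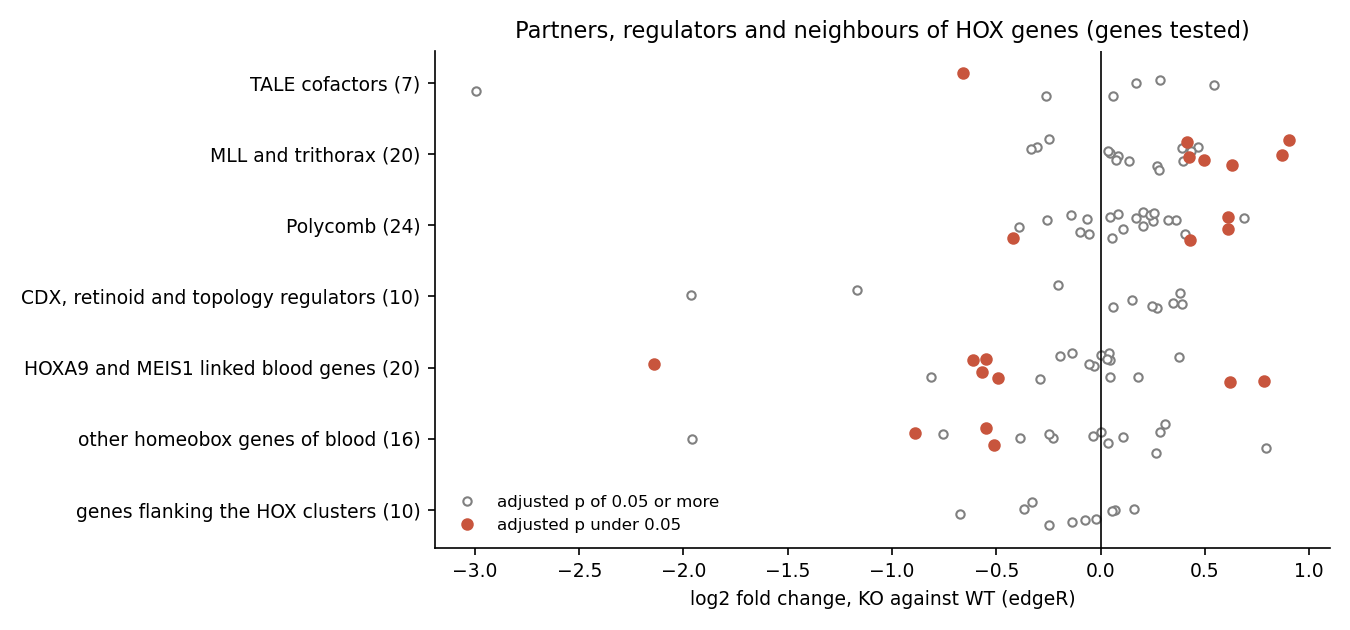
Log2 fold change of KO against WT (x axis, edgeR) of the tested genes of 7 lists (y axis, number tested in brackets); filled red points passed an adjusted p of 0.05 and open points did not, with vertical scatter for legibility only. The MLL and trithorax list has 6 filled points, all right of 0, and the flanking genes have none, while the list of other homeobox genes also holds Hlf, a bZIP factor gene.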

How the data were processed

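Total RNA of 6 libraries was sequenced on an Illumina NextSeq500 with a stranded total RNA kit made for small amounts of RNA, per the labels' protocols. The authors deposited read counts and RPKM for 23951 gene symbols. The counts are whole numbers without normalization, and the submitters' processing notes name TopHat, Cufflinks and mm9. The read counter, its strand setting, the tool versions and the handling of multiply mapped reads were "not given in the sources used here". Thus reads of overlapping HOX genes (Hoxa3 with Hoxa4, Hoxa5 and Hoxa6, and Hoxb3 with Hoxb4, by their RefSeq spans) and of antisense transcripts cannot be told apart.

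The main test was the robust quasi-likelihood test of edgeR 4.0.16 (R 4.3.3) with group as its single term, on genes kept by filterByExpr at a count minimum of 10 and with TMM scaling, and with Benjamini-Hochberg adjustment over 12204 genes and a threshold of 0.05. CPM used TMM library sizes. The SE is the log2 fold change over the square root of F. Alternatives were DESeq2 1.42.0, limma 3.58.1 (voom, and log2 of RPKM plus 1 or 0.1), no filter, a replicate block, DESeq2 size factors, and each library left out. The script was tested on simulated counts. Replicate pairs differed beyond counting noise (chi-square per degree of freedom 21.9 to 44.4). All tested HOX genes were named, and of each other list up to 4 called genes per direction with the smallest p, plus Meis1, Kmt2a, Bmi1 and Ezh2. Some genes that this rule covers are not reported here. Psip1, Kdm6b, Flt3, Meis2, Ctcf, Cyp26b1, Pou2f2, Calcoco1, Skap2, Cbx1 and the named stem cell markers were named after their values were seen. Members and lists were chosen with earlier results of these data known.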

Additional observations from a re-analysis of the deposited data

How the results depend on the processing

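The absence of called HOX genes held in edgeR with DESeq2 size factors, without a filter, with a replicate block and without any 1 library, and in limma-voom and limma on RPKM. With DESeq2, which called 942 of all genes higher and 846 lower, 1 HOX gene was called higher. In every fit 0 HOX genes were called lower. The replicate block gave 0 HOX genes higher and 0 lower, and called Cyp26b1 lower (adjusted p = 0.0421). Same-numbered WT and KO libraries correlated by 0.022, 0.012 and -0.003 in their deviations, without a sign of pairing by number. With 3 libraries per group, these values cannot show that the libraries were unpaired. Over all genes, the block gave 762 higher and 579 lower calls, against 782 and 609 without it, limma on log2(RPKM + 1) gave 348 and 235 and with 0.1 gave 337 and 223, and leaving out 1 library gave 448 to 717 higher and 264 to 546 lower. Of the 106 tested genes of the 7 lists, 11 were higher and 9 lower, against 6.41% and 4.99% of all genes. These numbers were 2 and 2 with limma on RPKM at either pseudocount, and 7 to 10 and 3 to 9 without 1 library. The cause of the fall with RPKM was not tested. The summed level of all HOX genes was 0.29 in log2 KO over WT from CPM and 0.42 from RPKM. The number of HOX genes with every KO library above every WT library was 5. In comparisons chosen after seeing the data (as were those over all genes), it was 4 in RPKM and 5 to 7 without 1 library. At fixed scaling, groups that are apart stay apart when a library is left out, so that range cannot show stability. Signs of genes near 0 turned. Hoxa3 (-0.05) was 0.10 and 0.14 with limma on RPKM and 0.052 with limma-voom, and Hoxa7 (-0.22) was 0.032 and 0.035 with limma on RPKM. Without 1 library, Hoxa3 ran from -0.25 to 0.24, Hoxa5 from -0.036 to 0.39 and Hoxa10 from -0.22 to 0.41. The log2 fold change of Hoxb6 ran from 0.87 to 3.36 and that of Hoxb8 from 2.14 to 3.30 without 1 library, and Hoxb8 was at 1.004 with limma on log2(RPKM + 1).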

Other observations

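A list drawn up for homeobox genes outside the clusters had 16 tested genes, 0 higher and 3 lower, against 6.41% and 4.99% of all genes. Of the 3, Hlf, given with the blood genes, encodes a bZIP factor and is no homeobox gene. Zeb2, a zinc finger and homeodomain repressor of blood and mesenchymal cells, fell from 204 ± 25.8 to 110.0 ± 5.97 CPM (SD, n = 3 each), by 0.89 on the log2 scale (edgeR, adjusted p = 0.000126), and kept its call in all 13 alternatives. Hhex, a homeodomain gene of liver and early blood, fell by 0.51 (SE 0.14, edgeR adjusted p = 0.0209), a call lost when any of WT replicates 1 and 2 and KO replicates 2 and 3 was left out (highest adjusted p = 0.137). Pou2f2, a POU homeodomain gene of lymphoid cells, had an adjusted p of 0.104 and was called higher without the filter on low counts (edgeR, adjusted p = 0.0311) and without KO replicate 2 (0.0349).

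Around the clusters, 10 flanking genes were tested and 0 passed in either direction in edgeR, where 6.41% of all genes were higher and 4.99% lower. DESeq2 and limma-voom also called 0. In edgeR 1 gene, Calcoco1, had an unadjusted p under 0.05, against 25% of all genes, with an adjusted p of 0.0652. Skap2 near Hoxa had 75.9 ± 9.96 CPM in the WT group and 72.2 ± 1.18 in the KO group, and Cbx1 near Hoxb had 143 ± 15.4 and 160 ± 19.4 (SD, n = 3 each). Hotair, Hottip, Hoxa11os, Hoxd3os1, Evx1, Evx2 and the 6 microRNA genes of the clusters were listed at 0 counts in every library.

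The deposited tables differ for some silent members. Hoxd11 had 0 counts in every library, yet its RPKM was 0.0429, 0 and 0.0682 in WT and 0.0326, 0.0567 and 0.0642 in KO.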
